A study of Mus musculus with 6 samples.

Results

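Mitochondrial ribosomal protein genes were followed in regulatory T cells (Tregs) that had lost Zfp335, a zinc finger transcription factor. Members were all genes of the deposited count table whose symbol is Mrpl or Mrps followed by a digit, which gave 79 of 13709 rows: 50 Mrpl genes, named for the large subunit, and 29 Mrps genes, named for the small subunit. The KO samples were Tregs of Foxp3Cre Zfp335fl/fl mice and the WT samples Tregs of Foxp3Cre mice, so both groups carried the Cre, which is driven from the Foxp3 locus and marks its cells with YFP. All mice were 2 weeks old on a C57BL/6 background, and CD4+YFP+CD25+ cells were sorted from them for bulk RNA sequencing, with 3 samples a group. The labels name lymph node in one field and spleen in another, and whether a sample was 1 mouse or a pool is not given in the sources used here, so the p-values measure only the spread between these samples.

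Mitochondria keep a small genome of their own that encodes core subunits of the respiratory chain. These mRNAs are read by a separate ribosome inside the organelle, the mitoribosome, whose RNA is made from mitochondrial DNA and whose proteins are all encoded in the nucleus, made in the cytosol and imported. Some of its proteins descend from those of bacterial ribosomes and others exist only in mitochondria, so building 1 particle needs many nuclear genes, spread here over 17 chromosomes, at the same time. T cells that are activated enlarge their mitochondria and make more of this machinery.

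Zfp335 itself stood at 101.3, 94.3 and 102.7 CPM in WT samples and at 37.0, 37.9 and 40.2 CPM in KO samples, 38.6% of the WT mean (log2 fold change -1.37, SE 0.07, adjusted p = 2.14e-05). No KO sample reached the lowest WT sample. CPM are counts per 1000000 library counts, with each library size scaled by its TMM factor (edgeR). Libraries held 32032631 to 40728419 counts. WT sample 3 stood apart from the other WT samples: Mki67, a proliferation marker, was at 441, 445 and 199 CPM in WT samples and at 1568, 1549 and 1507 CPM in KO, and all 10 of 10 cell cycle markers, Top2a (log2 fold change 1.80) among them, were called higher. Foxp3, the Treg master regulator, fell (log2 fold change -0.88), as did Ikzf2 (-1.11), the 2 called of 8 Treg and T cell markers, with Cd4 at 0.26 and not called. Markers of other cells were low: summed CPM in WT samples and KO were 9.32 to 13.2 and 12.0 to 12.7 for the 2 CD8 genes (Cd8a called higher), 17.99 to 20.1 and 12.1 to 12.6 for the 5 B cell genes (Cd79b called lower), 18.3 to 30.3 and 57.3 to 63.6 for the 8 myeloid genes (6 called higher), 3.78 to 5.89 and 15.4 to 17.3 for the 4 NK genes (3 called higher), 23.3 to 101 and 43.2 to 49.8 for the 5 erythroid genes, and 0 in every WT sample and 3.57 to 5.42 in KO for S100a8 and S100a9, the 2 of 6 neutrophil genes in the table. The part of these cells in the results was not tested, and fewer cells of a type and less RNA per cell cannot be told apart in bulk samples.

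The mitoribosome genes as a group hardly moved. Of the 79 members, 2 met the call rule used throughout (a fold change over 1.5, p under 0.05 and adjusted p under 0.1, the cutoffs of the study): Mrpl18 rose and Mrpl24 fell. That is 2.53% of the members, against 24.4% of all 13594 genes tested, of which 11.9% were called higher and 12.5% lower. At adjusted p under 0.1 with no requirement on the fold, 11 members were higher and 7 lower, 22.8% together against 47% of all genes (22.7% higher and 24.3% lower). KO and WT samples did not overlap for 26 members, 17 higher and 9 lower in KO, or 32.9% against 53.8% of all genes (26.2% higher and 27.6% lower). All 79 members passed the filter on low counts, so the counts leave out no member. Without WT sample 3, the same 2 members were called, against 26.84% of all genes. Without WT sample 1 or WT sample 2 the count was 4, against 23.32% and 24.1% of all genes. Without KO sample 3 it was 5, against 21.39% of all genes. A test against the 1.5-fold threshold itself (edgeR glmTreat) called 0, against 12.4% of all genes, with 2 members at an unadjusted p under 0.05.

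The values behind this were narrow. The median log2 fold change of the members was 0.05, with an interquartile range from -0.06 to 0.19 and the whole group between -0.68 and 0.78, while for all genes the interquartile range ran from -0.40 to 0.31 around a median of -0.04. The SD over genes was 0.24 for the members and 0.99 for all genes tested. For 65 of the 79 members (82.3%) the 95% confidence interval of the fold change lay wholly inside 1.5-fold in either direction, against 38% of all genes. Other lists were similar in spread: the SD was 0.25 for 80 nuclear respiratory chain genes and 0.26 for 82 rows of cytosolic ribosomal protein genes. Their intervals lay inside 1.5-fold for 83.75% and 51.2% of the genes. The members were not rare transcripts, with 149 to 3441 counts per sample and a median of 971, and their standard errors had a median of 0.11. The summed level of all members was 2307, 2505 and 2217 CPM in WT samples and 2412, 2377 and 2452 CPM in KO. Every KO sum thus lay within the range of the WT sums, and the lowest sum was in WT sample 3, which also had the lowest cell cycle sum (738 CPM against 1390 and 1386 CPM in the other WT samples and 3721 to 3872 CPM in KO).

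**Figure D1:**
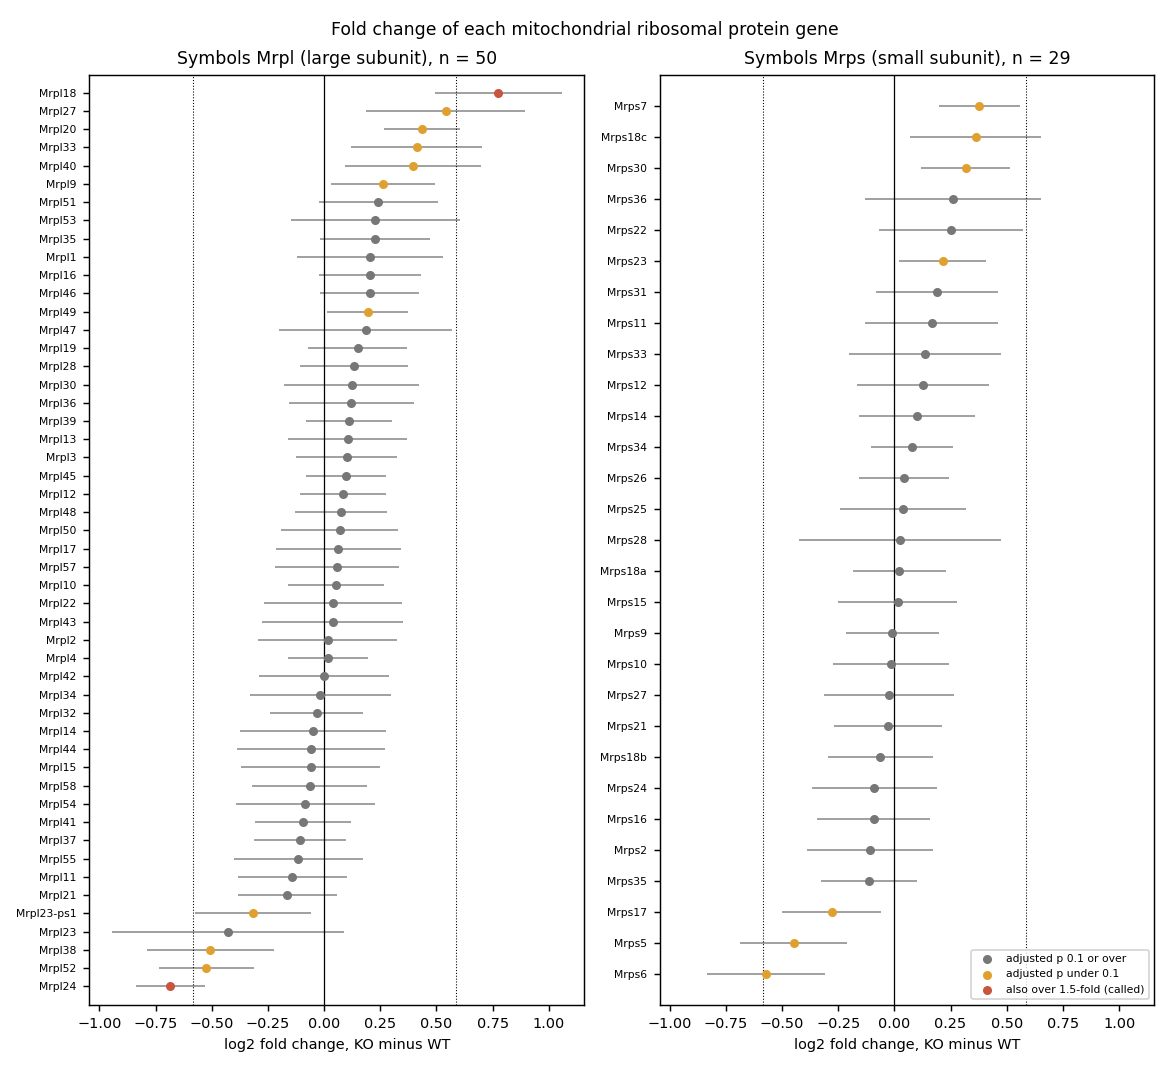
Log2 fold change of each of the 79 genes (x axis, KO minus WT, with the 95% confidence interval as a bar), Mrpl genes left and Mrps genes right, in order of size. Dotted lines mark 1.5-fold in either direction; only Mrpl18 and Mrpl24 (red) met the call rule, and most bars lie between the lines.

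Each of the called genes encodes a large-subunit protein with a bacterial counterpart. Mrpl18 belongs to the central protuberance, the crest of the large subunit. It stood at 42.4, 53.7 and 41.5 CPM in WT samples and at 81.5, 70.3 and 83.8 CPM in KO. The groups did not overlap, and the log2 fold change was 0.78 (SE 0.12, 95% interval 0.49 to 1.06, adjusted p = 0.0020). Mrpl24, a protein bound to ribosomal RNA near the exit of the peptide tunnel, was at 93.5, 97.3 and 98.0 CPM in WT samples and at 62.7, 58.1 and 58.8 CPM in KO. All WT samples lay above all KO samples (log2 fold change -0.68, SE 0.07, 95% interval -0.84 to -0.53, adjusted p = 0.000269).

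Each of these genes shares exon sequence with a protein-coding gene on the other strand, and whether the reads were counted by strand is not given in the sources used here. Mrpl18 (chr17:12911349-12916345, minus strand, mm10) overlaps Tcp1, a subunit of the cytosolic chaperonin, over 141 of its 1398 exon bases. Tcp1 was at 224.8 CPM in WT samples and 312.6 CPM in KO samples (log2 fold change 0.48, adjusted p = 0.00108). Mrpl24 (chr3:87919506-87923672, plus strand) overlaps Rrnad1 over 594 of its 2255 exon bases, and Rrnad1 was at 46.8 and 30.2 CPM (log2 fold change -0.63, called lower). Reads of overlapping genes cannot be told apart without strand, and the part of the neighbours in these results was not tested.

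The sequence just before the gene is shown for Mrpl24, for the largest fall and rise among members with neither an overlapping coding gene nor a near-identical copy (Mrpl52 and Mrpl20, described below), and for Mrpl57, which starts next to a gene that moved far more than it did. The bases come from the RefSeq windows of 250 bases before each start (GRCm38.p6), kept only where GENCODE M21, the annotation used for positions here, places no exon. They are chr3:87919294-87919505 for Mrpl24, chr14:54426659-54426908 for Mrpl52, chr4:155802628-155802877 for Mrpl20 and chr14:57826186-57826233 for Mrpl57, all on the plus strand and written 5′ to 3′ along the gene. The Mrpl57 stretch of 48 bases is all that lies between its start and that of Ska3 on the other strand. The RefSeq window of Mrpl57 holds a TGCGCA that the cut at the exon removed except for its last base, which opens the printed stretch. Capitals would mark the ETS motif CCGGAAGT, CCAAT or TGCGCA on either strand, and none of these occurs whole in the printed bases:
Mrpl24: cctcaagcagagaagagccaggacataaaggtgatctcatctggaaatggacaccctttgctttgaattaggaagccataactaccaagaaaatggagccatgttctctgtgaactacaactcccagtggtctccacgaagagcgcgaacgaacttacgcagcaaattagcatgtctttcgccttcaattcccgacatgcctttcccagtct
Mrpl52: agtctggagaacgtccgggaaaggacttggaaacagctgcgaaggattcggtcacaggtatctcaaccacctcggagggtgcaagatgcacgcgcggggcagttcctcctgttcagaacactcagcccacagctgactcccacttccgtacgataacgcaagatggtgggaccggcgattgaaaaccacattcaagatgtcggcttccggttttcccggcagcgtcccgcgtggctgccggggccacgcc
Mrpl20: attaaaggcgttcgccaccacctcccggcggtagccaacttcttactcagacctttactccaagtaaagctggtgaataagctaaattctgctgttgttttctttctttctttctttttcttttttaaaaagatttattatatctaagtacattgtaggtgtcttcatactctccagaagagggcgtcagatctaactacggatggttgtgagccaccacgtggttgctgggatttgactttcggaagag
Mrpl57: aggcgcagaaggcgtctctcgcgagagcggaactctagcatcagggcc
The annotations place some starts differently. The RefSeq windows of Mrpl18 and Mrpl51 lie wholly inside these genes as GENCODE draws them, so they are not shown, and over all 69 members with a window 12 were wholly inside the gene and 25 had no base inside it.

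Nuclear respiratory factor 1 (NRF1) and the ETS factor GABP are known regulators of nuclear genes for mitochondria, so their motifs were counted in the RefSeq windows of 250 bases, whether or not GENCODE places them before the gene. The ETS motif CCGGAAGT was in 9 of the 69 members (13.0%), against 5.84% of 10654 promoters of tested genes and 2.93% of all 27025 promoters. TGCGCA, a stretch of the longer NRF1 motif, was in 18 (26.1%, against 11.5% and 6.66%). The full NRF1 palindrome was in 3 (4.35%, against 1.62% and 0.781%). CCAAT was in 25 (36.2%, against 36.7% and 34.5%) and TATAAA in 4 (5.80%, against 7.33% and 13.0%). Both strands were searched. Median GC content of the windows was 58.4% for the members, 59.2% for tested genes and 52.0% for all promoters, and a match is a description of letters, not of binding. The genes of these factors were higher by under 1.5-fold: Gabpa was at 85.2 ± 9.8 CPM (SD, n = 3) in WT and 111.2 ± 4.0 CPM in KO samples (log2 fold change 0.38), and Nrf1 at 66.7 ± 4.8 and 77.3 ± 2.2 CPM (0.21), both past adjusted p under 0.1.

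Among the other large-subunit genes, Mrpl27, Mrpl20 and Mrpl33 had the next largest rises. Mrpl27, which reaches toward the peptidyl transferase centre, was at 20.6, 22.4 and 15.3 CPM in WT samples and 30.6, 28.6 and 25.6 CPM in KO samples (log2 fold change 0.54, SE 0.15, adjusted p = 0.0254). It overlaps Eme1, a DNA repair nuclease subunit on the other strand that went from 6.88 to 19.9 CPM (1.53, called higher), and it has a near-identical copy, Gm6304. Mrpl27 was called without WT sample 1 (0.59), WT sample 2 (0.65) or KO sample 3 (0.61). Mrpl20, an RNA-binding protein of the early assembling subunit, was at 32.2, 34.5 and 32.8 CPM in WT samples and 45.1, 45.1 and 44.3 CPM in KO (0.44, SE 0.07, adjusted p = 0.0027), with no overlap between groups. Mrpl33 was at 35.1, 32.1 and 25.1 CPM in WT samples and 39.9, 42.3 and 40.8 CPM in KO (0.41, adjusted p = 0.0337). WT sample 3 was the lowest sample for both Mrpl27 and Mrpl33.

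On the other side, Mrpl52 and Mrpl38, both proteins without a bacterial counterpart, fell by under 1.5-fold. Mrpl52 was at 45.8, 55.1 and 48.0 CPM in WT samples and 33.2, 35.3 and 35.0 CPM in KO samples (log2 fold change -0.52, SE 0.09, adjusted p = 0.00327). It has neither an overlapping coding gene nor a near-identical copy. Mrpl38, of the central protuberance like Mrpl18, was at 25.3, 26.7 and 24.2 CPM in WT samples and 15.3, 18.1 and 20.2 CPM in KO (-0.51, SE 0.12, adjusted p = 0.0134), and was called without KO sample 3 (-0.60). Mrpl23 (-0.43, SE 0.22, adjusted p = 0.171) did not pass, and its reads may be shared with the processed pseudogene Mrpl23-ps1 (-0.32, adjusted p = 0.0553), which the naming rule counts among the 79.

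No small-subunit gene met the call rule in edgeR or in DESeq2, while 24.4% of all genes were called in edgeR. Of the 29, 7 had an unadjusted p under 0.05 in edgeR. The same number passed adjusted p under 0.1, or 24.1% against 47% of all genes. The largest fall was in Mrps6, at 22.4, 21.0 and 26.1 CPM in WT samples and 15.9, 14.8 and 16.2 CPM in KO samples (log2 fold change -0.57, SE 0.11, adjusted p = 0.00597), just short of 1.5-fold. It was called with library totals alone (-0.61), with GC and length offsets (-0.65) and without WT sample 1 (-0.60), WT sample 2 (-0.64) or KO sample 3 (-0.60). It shares exon sequence on the same strand with Slc5a3, a myo-inositol transporter, which fell from 27.9 to 12.0 CPM (-1.22, called lower). Mrps5, next to the channel by which mRNA enters, was at 50.5, 54.1 and 43.7 CPM in WT samples and 37.3, 33.4 and 38.0 CPM in KO (-0.45, SE 0.10, adjusted p = 0.0107), and it has a near-identical copy, Gm13328. Mrps17 followed at -0.28 (adjusted p = 0.0487), and Mrps35 at -0.11 did not pass (adjusted p = 0.378).

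Mrps7, a primary binder of ribosomal RNA in the head of the small subunit, had the largest rise of the 29, from 35.7, 33.3 and 35.5 CPM in WT to 46.5, 43.0 and 46.4 CPM in KO samples (log2 fold change 0.38, SE 0.08, adjusted p = 0.00674). Its overlapping neighbours Gga3 and Mif4gd went the other way (-0.68, called lower, and -0.30). Mrps18c (0.36, adjusted p = 0.0539) and Mrps30 (0.32, adjusted p = 0.0207) also passed the adjusted threshold. Mrps30 sits in the large subunit despite its name. Mrps36 (0.26, adjusted p = 0.265), whose product is a component of the 2-oxoglutarate dehydrogenase complex, did not pass. The remaining members past adjusted p under 0.1 were Mrps23 (0.22) and, named after their values were seen, Mrpl40 (0.40), Mrpl9 (0.26) and Mrpl49 (0.19).

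**Figure D2:**
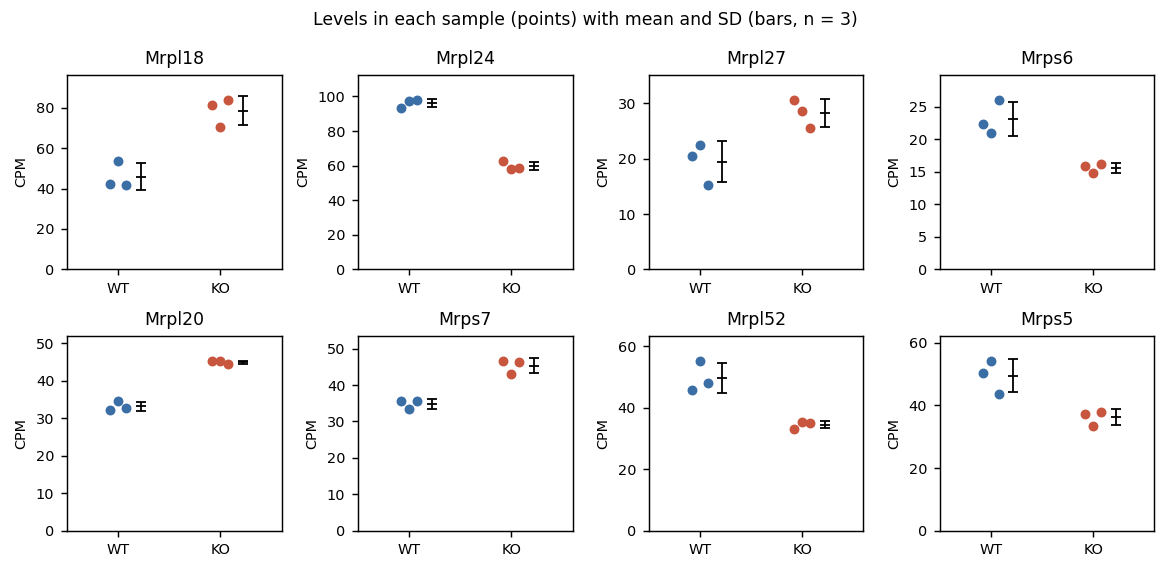
CPM (y axis, from 0) of 8 of the named genes in each WT and KO sample, as points, with the mean and SD of 3 samples as bars. WT and KO points do not overlap in any of the 8 panels, yet only Mrpl18 and Mrpl24 differ by over 1.5-fold and meet the call rule.

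Grouped by symbol, the difference between large and small subunit was close to the spread of the samples. The median log2 fold change was 0.07 for the 50 Mrpl genes and 0.02 for the 29 Mrps genes. Summed Mrpl over summed Mrps CPM was 1.83, 1.86 and 1.86 in WT (mean 1.85 ± 0.02, SD, n = 3) and 1.93, 1.84 and 1.90 in KO (1.89 ± 0.04). The difference of 0.030 on the log2 scale was about the size of the SD between samples, 0.027, and the groups overlapped. On levels per kilobase of transcript the sign of the difference turned (-0.012), and with Mrps30 and Mrps18a counted in the large subunit, where their proteins are found, it was 0.051, with all KO ratios (2.20, 2.12 and 2.19) above all WT ratios (2.07, 2.10 and 2.11) and an SD of 0.023. Groups of 3 against 3 do not allow an exact two-sided permutation p below 0.1, so no test is given.

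Proteins of bacterial descent and those specific to mitochondria were then set apart. In this split Mrps30 and Mrps18a were counted in the large subunit. Of 30 large-subunit proteins with a bacterial counterpart, 1 was called higher and 1 lower, with a median log2 fold change of 0.09, and of 21 specific to mitochondria, none was called by edgeR or DESeq2 (5 at an unadjusted p under 0.05 in edgeR, all past adjusted p under 0.1, median 0.06). In the small subunit, none of 16 bacterial-type proteins (5 at an unadjusted p under 0.05 in edgeR, median -0.01) and none of 10 specific ones (1 at that p, median 0.06) was called by edgeR or DESeq2. By edgeR, 6.67% of the 30 were called and 0% of each other list, against 24.4% of all genes. The bacterial-type and specific lists passed adjusted p under 0.1 at 20% and 23.8% in the large subunit. In the small subunit these shares were 31.25% and 10%, against 47% of all genes. The summed level in KO was 103.5% of WT for the 46 bacterial-type and 102.6% for the 31 mitochondria-specific proteins. These lists together do not hold all 79 members.

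Levels differed far more between members than between genotypes. Divided by the length of the longest transcript and rescaled to the same total in every sample, as in TPM, the WT means ran from 4.39 to 201, a range of 45.8-fold, around a median of 42.9. In the small subunit Mrps21 was highest, at 201, 227 and 176 in WT and 186, 203 and 193 in KO, followed by Mrps23 (99.0 ± 9.7, SD, n = 3, in WT and 113 ± 7.2 in KO). The lowest were Mrps25 (5.93 ± 0.42 in WT and 5.99 ± 0.35 in KO) and Mrps22 (12.8 ± 2.3 and 14.9 ± 1.6). In the large subunit Mrpl24 was highest in WT (197 ± 3.0), above Mrpl52 (159 ± 15), and both were lower in KO (121 ± 5.2 and 109 ± 3.5). Mrpl23 (4.39 ± 1.1 in WT) and Mrpl47 (7.74 ± 1.5) were the lowest, and their WT samples lay apart from each other. The near-identical pseudogene Mrpl23-ps1 stood at 136 ± 9.8 in WT, rank 3 of the 50 Mrpl genes. How reads were shared between it and Mrpl23 was not tested, so the low end of the range may depend on that. The order depends on the transcript: with the shortest principal transcript Mrpl24 ranked 3 and Mrpl23 ranked 41 of the 50 Mrpl genes, while among the 29 Mrps genes Mrps22 ranked 19, Mrps23 ranked 4 and Mrps17 went from 23 to 2. Mrps21 stayed at rank 1 and Mrps25 at 29. On the same per-length scale, the median over genes, at its middle value among the WT samples, was 45.2 for Mrpl and 37.96 for Mrps genes, against 141.5 for nuclear respiratory chain genes and 1740 for cytosolic ribosomal proteins.

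Many members lie close to other genes, which bears on what was counted. Of the 79, 23 share exon sequence with another protein-coding gene and 19 have a near-identical copy elsewhere, 38 with either. None of the remaining 41 was called by edgeR or by DESeq2, while edgeR called 24.4% of all genes. Of the 41, 8 had an unadjusted p under 0.05 in edgeR. The same number passed adjusted p under 0.1 (5 higher, 3 lower), where 22.8% of all 79 members and 47% of all genes passed. Fold changes of the 41 had a median of 0.06 on the log2 scale, and that of Mrpl52 was the largest in size (0.52).

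Many members also start head to head with a neighbour on the opposite strand. Within 1000 bases, 23 members had such a partner. The distance between starts was negative where the partner started downstream of the member's start, and ran from -197 (Eme1) to 935 bases (Pnpla7). Its median, with sign, was 62.5 bases for the 22 partners tested. Of these partners 8 were called (3 higher, 5 lower), or 36.4% against 24.4% of all genes, whereas none of the 22 members was called by edgeR or DESeq2 (6 at an unadjusted p under 0.05 in edgeR). The median size of the log2 fold change was 0.38 for partners and 0.11 for members, and 13 of the 22 pairs had the same sign. The following pairs were picked after their values were seen. Ska3, a kinetochore protein that starts 49 bases from Mrpl57, went from 7.36 to 25.8 CPM (1.81, called higher), while Mrpl57 had a log2 fold change of 0.06. Ncapd2, a condensin subunit 100 bases from Mrpl51, went from 147.3 to 397.1 CPM (1.43, called higher) beside 0.24 for Mrpl51. Cyb5rl fell (-0.99) beside Mrpl37 (-0.11), and Zfp661 fell from 3.44 to 1.18 CPM (-1.54) beside Mrps5 (-0.45). Of the 8 pairs with a called partner, 2 had opposite signs: Gga3 (-0.68) beside Mrps7 (0.38) and Klc4 (-0.62) beside Mrpl2 (0.02). Mrpl51 and Mrpl57 thus have a mitotic gene at their own start that rose with the cell cycle markers, and their own values did not pass the test.

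**Figure D3:**
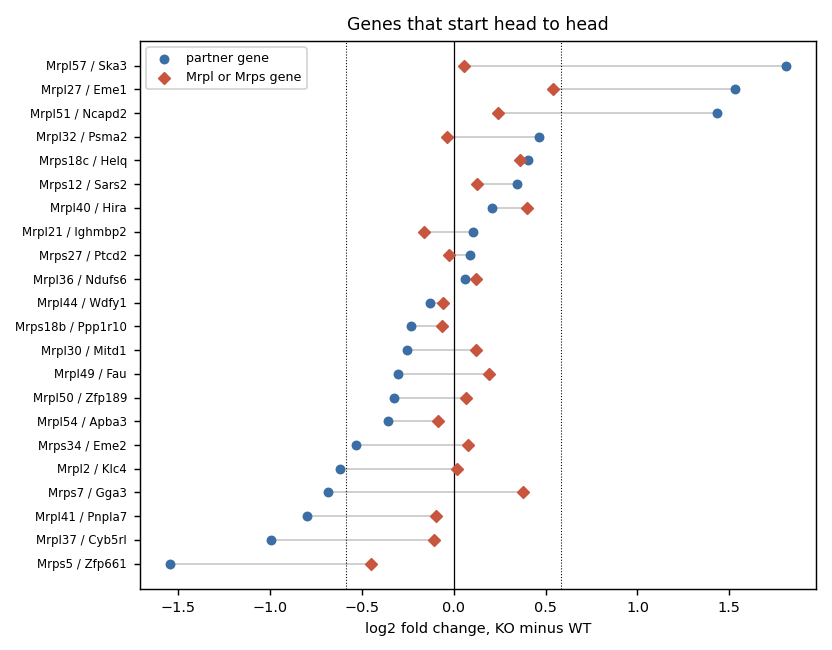
Log2 fold change (x axis, KO minus WT) of 22 members (red diamonds) and of the gene that starts head to head with each (blue circles), joined by a line, in order of the partner. Dotted lines mark 1.5-fold in either direction; partners range from -1.54 to 1.81 and these members from -0.45 to 0.54.

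The rest of the mitochondrial translation machinery, with 12 regulators of mitochondrial biogenesis, was described from lists chosen with earlier results of these data known. These lists held 61 genes in all that were tested. Of 5 mitoribosomal proteins with other names none was called by edgeR or DESeq2 and 1 had an unadjusted p under 0.05 in edgeR: Dap3, a GTP-binding protein of the small subunit, was at 91.3 ± 1.5 CPM in WT samples and 76.5 ± 2.7 in KO (SD, n = 3, log2 fold change -0.26, adjusted p = 0.0148). Of 27 factors that assemble the particle, 1 was called higher and 2 lower, or 11.1% against 24.4% of all genes. Past adjusted p under 0.1, 2 were higher and 9 lower, or 40.7% against 47%, and the median log2 fold change was -0.11. Mettl17, needed for the small subunit, was at 65.4, 59.3 and 55.5 CPM in WT samples and 36.7, 36.3 and 38.3 CPM in KO (-0.69, SE 0.08, adjusted p = 0.00068). Mrm1, which methylates the large ribosomal RNA, was at 15.9, 16.1 and 13.1 CPM in WT samples and 10.4, 9.43 and 9.81 CPM in KO (-0.60, adjusted p = 0.00824). Ddx28, a helicase of large-subunit assembly, was at 15.5, 15.1 and 11.2 CPM in WT samples and 21.1, 22.5 and 19.4 CPM in KO (0.59, adjusted p = 0.0153). Mrm1 and Ddx28 lie at the edge of the fold threshold: Mrm1 is -0.56 without WT sample 1 or without WT sample 2 and -0.57 without KO sample 2, and Ddx28 is 0.45 without WT sample 3 and 0.54 without KO sample 2, none of them called. With library totals alone Ddx28 (0.55), and with GC and length offsets Mrm1 (-0.58), also lost the call, which left 2 called in each of these settings.

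Of 17 translation factors none was called by edgeR or DESeq2 and 3 had an unadjusted p under 0.05 in edgeR. Of these, the elongation factor Gfm1 (41.02, 43.9 and 35.2 CPM in WT samples, 61.0, 57.8 and 59.3 CPM in KO samples, log2 fold change 0.57, adjusted p = 0.00269) was higher and Guf1 (-0.35, adjusted p = 0.0164) and the initiation factor Mtif2 (-0.33, adjusted p = 0.0113) lower at adjusted p under 0.1. Of 12 regulators of mitochondrial biogenesis none was called by edgeR or DESeq2, 8 had an unadjusted p under 0.05 in edgeR, and 4 were higher and 4 lower past adjusted p under 0.1. Tfam, which packages mitochondrial DNA, was among the former (0.29) and Polrmt, the mitochondrial RNA polymerase, and Ppargc1b, a coactivator, among the latter (-0.22 and -0.48). The share past adjusted p under 0.1 was 17.65% of the 17 translation factors and 66.67% of the 12 regulators, against 47% of all genes. Myc, a driver of ribosome synthesis, was at 194.6 ± 8.3 CPM in WT samples and 186.9 ± 2.4 in KO (log2 fold change -0.06).

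The mitoribosome genes were set beside the respiratory chain and the cytosolic ribosome. The summed level of the 79 members in KO was 103% of WT. The 80 nuclear respiratory chain genes were at 112.6% (2 called higher, 1 lower, 19 higher and 7 lower past adjusted p, median log2 fold change 0.10), and all KO sums, 7428 to 7578 CPM, lay above the WT sums of 6395 to 7177. The 82 rows of cytosolic ribosomal protein genes were at 82.6%, with a median of -0.32. These rows were chosen by symbol, hold Rpl37rt more than once, and include Rps27rt, 1 of the 4 called lower. By edgeR 4 were called lower and none higher, and 53 were lower and 1 higher past adjusted p. DESeq2 called 5, adding Rps27l as higher. Without WT sample 3, the highest of the 6 in this list, 1 was called. Their sums were 56650, 65100 and 71820 CPM in WT samples and 52790 to 53930 CPM in KO. The 13 mRNAs encoded in mitochondrial DNA, which the mitoribosome reads, were at 76.8% (33390, 31280 and 25060 CPM in WT samples 2, 3 and 1, and 20700 to 24160 in KO), with all 13 of 13 fold changes negative, 8 past adjusted p under 0.1, 1 called lower by edgeR and 0 by DESeq2, and a median of -0.41. These sums are relative to each library's TMM-scaled size, so they do not give RNA per cell. Of the nuclear respiratory chain, cytosolic ribosomal and mitochondrially encoded genes, 3.75%, 4.88% and 7.69% were called by edgeR, against 24.4% of all genes. Past adjusted p under 0.1 were 32.5%, 65.85% and 61.54%, in that order, against 47%. No test of the difference between these lists was made.

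**Figure D4:**
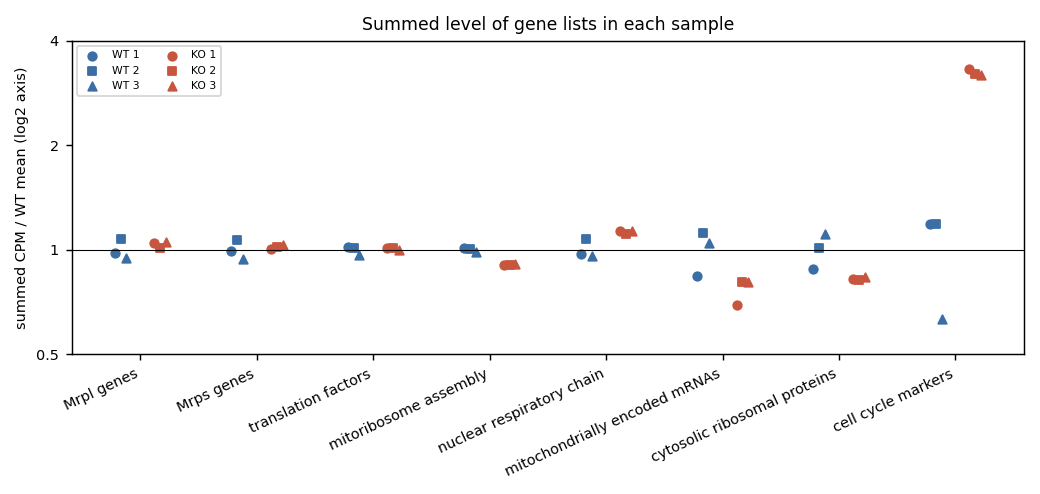
Summed CPM of each gene list in each sample, divided by the mean of the 3 WT samples (y axis, log2 scale; blue WT, red KO; one marker shape a sample number). The Mrpl and Mrps sums of KO samples lie within the WT range, the cell cycle markers lie far above it at 323% of the WT mean, and mitochondrially encoded mRNAs lie below the WT range.

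**Figure D5:**
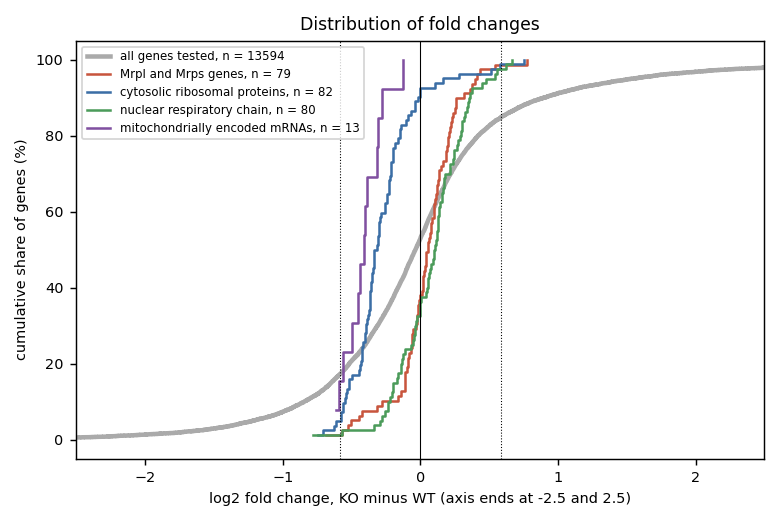
Cumulative share of genes (y axis, %) at or below each log2 fold change (x axis, KO minus WT, with both tails cut off), for all genes tested (grey) and 4 lists. The curve of the 79 members (red) rises steeply near 0, with 67.1% of members within 0.2 of it against 31.6% of all genes, while cytosolic ribosomal and mitochondrially encoded genes lie to the left.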

How the data were processed

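Treg RNA from 3 WT and 3 KO samples was sequenced. The authors removed low-quality reads with SOAPnuke, aligned with HISAT2 to mm10, quantified with StringTie and tested with DESeq2. They deposited a table of read counts per gene symbol, not normalised. How the counts were made, the annotation, and whether strand was used are not given in the sources used here, nor is depth beyond the 32032631 to 40728419 counts per sample. Here, CPM and fold changes came from edgeR 4.0.16 (TMM, filterByExpr with a minimum of 10 counts, quasi-likelihood F test, R 4.3.3) fitted on all genes with Benjamini-Hochberg adjustment. Library size limits precision by counting error; replicates limit it further. Rows with near-identical copies had a match of at least 95% identity over 200 bases in a pseudogene or over 50% of the transcript. Positions and lengths came from the mouse annotation of mm10; promoter sequences from RefSeq.

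The members and lists were chosen with earlier results of these data known. Genes were named by rule: Zfp335, called members, the 4 largest rises and falls and the 2 highest and lowest levels of each subunit, called genes of the other translation lists, and overlapping neighbours. TGCGCA was added as a motif afterwards. Alternatives were DESeq2 1.42.0, other scalings and filters, GC and length offsets, a replicate block, glmTreat and leaving out each sample. The fit was tested on simulated data.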

Additional observations from a re-analysis of the deposited data

How the results depend on the processing

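Mrpl18 and Mrpl24 were the members called in every setting except a test against the 1.5-fold threshold itself (edgeR glmTreat). That test called 0 members (2 at an unadjusted p under 0.05), against 12.4% of all genes. It also called 0 of the 61 genes in the other translation and biogenesis lists (1 at an unadjusted p under 0.05). DESeq2 called 2 members, as did other size factors and filters. Scaling by library totals alone or GC and length offsets added Mrps6 (-0.61 and -0.65), for 3, and each left 2 of the 61 other genes called in place of 3. Leaving out 1 sample gave 2 to 5 called members: 4 without WT sample 1 or WT sample 2 (Mrps6 and Mrpl27 added) and 5 without KO sample 3 (Mrpl38 added as well). Members past adjusted p under 0.1 at any fold then numbered 11 to 23, with 11 without KO sample 1 or KO sample 3 and 23 without WT sample 3. The share of all genes past it was 35.5% without KO sample 1, 35.58% without KO sample 3 and 57.89% without WT sample 3. Over all settings but glmTreat, 20.99% to 26.84% of all genes were called. The subunit ratio was -0.012 on the log2 scale per kilobase, and the median level was 44.4 on the shortest principal transcript, an alternative chosen after seeing the data. Mrps21, near 0, turned sign with GC and length offsets (0.014), and ran from -0.098 to 0.068 when 1 sample was left out. Mrps25 did so with library totals (-0.0018) and the offsets (-0.026), and ran from -0.028 to 0.094 when 1 sample was left out. The cause was not tested. Library totals shifted the median of all genes from -0.04 to -0.07.

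Same-numbered samples did not deviate together from their group means (correlations 0.038, 0.040 and -0.012), so the numbers were not taken as pairs. With a replicate block 2 members were called, Mrpl18 and Mrpl24, and 15 passed adjusted p under 0.1, against 23.47% and 43.74% of all genes.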
